A study of Sus scrofa domesticus with 4 samples.

Results

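The genes described here are 10 pig genes of the orexin system and of other hormone systems that link feeding and energy stores to reproduction. They are HCRT, HCRTR1, HCRTR2, ADIPOQ, ADIPOR1, ADIPOR2, LEP, LEPR, GHRL and RETN. They were found by matching the RefSeq mRNA named for each array probe to a gene symbol, which gave 16 of the 43603 non-control probes. All 10 genes had a probe, 6 of them had 2 probes and 4 had 1 probe. Where a gene had 2 probes they are numbered 1 and 2.

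Explants of uterine muscle (myometrium) were taken from the middle of the uterine horns of 4 mature gilts (Large White x Polish Landrace, 7 to 8 months old, 120 to 130 kg) that were 15 to 16 days pregnant. The OXB-treated group was cultured for 24 h with 10 nM orexin B, and the non-treated group for the same time without it, both after 2 h of preincubation. The slices were 3 mm thick and weighed 100 mg, so they hold the vessels, stroma and immune cells of the muscle layer as well as its smooth muscle cells. Each of 4 Agilent pig arrays carried treated and untreated RNA side by side in different colours. The labels do not tie an array to a gilt, and p-values measure the spread between the 4 arrays.

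By the dye fields of the labels, orexin B RNA was in red (Cy5) on arrays 1 and 3 and in green (Cy3) on arrays 2 and 4. The labels' protocol text names only the first arrangement. Smooth muscle markers fitted the labelled tissue: all 7 with a probe were bright enough to test, and the summed level of their probes ran from 372308 to 1047440 in the orexin B channel and from 658075 to 1443670 in the untreated channel. The share of all probes well above background ran from 48.7% to 54.3% in the orexin B channel and from 37.6% to 58.2% in the untreated channel, with the lowest value in the untreated channel of array 1. Array 1 was alone on a slide, and arrays 2, 3 and 4 shared another. The log2 ratios of any pair of arrays correlated at -0.18 to 0.36 across tested probes, which share arrays and are not replicates. Having only 4 arrays sets the precision of every mean below.

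As background, orexins A and B are cut from a single precursor, the product of HCRT, and act on the G protein-coupled receptors HCRTR1 and HCRTR2, of which the first prefers orexin A and the second binds both. The system is best known from hypothalamic neurons that govern arousal and feeding. Adiponectin (ADIPOQ) is a fat cell hormone read by ADIPOR1 and ADIPOR2, leptin (LEP) is another, read by LEPR, ghrelin (GHRL) is a stomach hormone that raises appetite, and resistin (RETN) is secreted by fat cells in rodents and mainly by macrophages in humans.

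Messenger RNA of the orexin precursor, both adiponectin receptors, leptin (with 1 of its 2 probes) and ghrelin gave signal in the cultured myometrium. The orexin receptors, adiponectin, the leptin receptor and resistin were not well above background on any array. Ghrelin was well above background on 4 arrays in the orexin B channel but on 2 in the untreated channel. Its mean log2 ratio, given below, was -0.02, with 2 arrays above 0 and 2 below. The scanner software's flag for a spot well above background was set for 52 of the 128 values that 16 probes give in 2 channels on 4 arrays. It was set on 0 of 8 values for 8 probes, which held every probe of HCRTR1, HCRTR2, ADIPOQ, LEPR and RETN. Among all non-control probes, 36.8% were flagged on no array in either channel. None of the 16 probes was marked as an outlier spot.

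The dim reading needs the negative-control spots beside it, since these spots, which match no pig transcript, read well above the glass around them. Their median signal was 183, 180, 183 and 198 scanner units in green on arrays 1 to 4, where the local background beside them had medians of 50.5, 27.5, 26 and 23.5. In red their medians were 59, 67, 67 and 69, over local medians of 36, 31.5, 31.5 and 30. A signal of at least 1.5 times local background, a looser rule than the flag, was met by all 128 values of the listed genes and by 96.4% of the negative-control values. Levels below are therefore given against the negative-control median of the same array and colour, and for the 7 probes tested below the green values lay closer to it than the red ones.

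**Figure D1:**
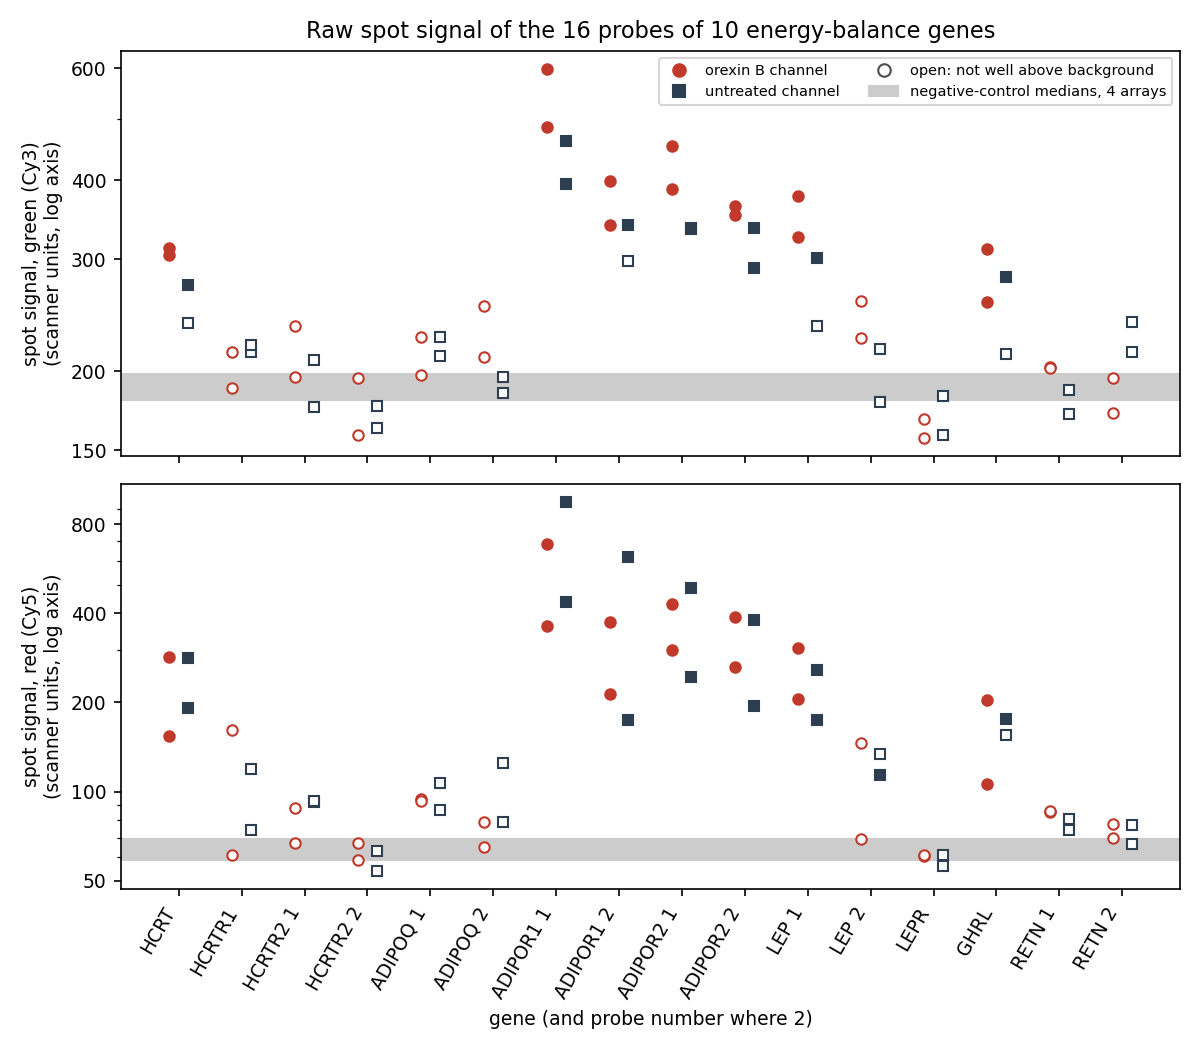
Raw spot signal (log axis, scanner units) of each probe in green (top) and red (bottom), with the orexin B channel left of the untreated channel, filled where well above background and open where not. The grey band spans the negative-control medians of the 4 arrays, which the ADIPOR1 and ADIPOR2 values clear in both colours, while LEPR was at 0.79 to 1.03 times the median of its own array.

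HCRT, the orexin precursor, was dim. Its spot read 154, 312.5, 284.5 and 305 scanner units in the orexin B channel of arrays 1 to 4, over local backgrounds of 27, 30, 28 and 21. In the untreated channel it read 238, 282, 273 and 191, over 53, 29, 24.5 and 29.5. The colours alternate along these series, so the raw values of a channel are comparable only within a colour. Against the negative controls HCRT was 1.30 to 1.74 times their median in green and 2.61 to 4.25 times in red. It was well above background on 4 of 4 arrays in the orexin B channel and on 3 of 4 in the untreated channel, where array 1 was missing. In that channel of array 1, 3 of the 16 probes were flagged, against 7 of 16 in the orexin B channel of the same array.

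HCRTR1, the receptor that prefers orexin A, read 61, 188, 161 and 214.5 in the orexin B channel and 214, 119, 220 and 74 in the untreated channel. Its highest value against the negative controls was 2.40 times their median, in the orexin B channel of array 3, and the next was 1.78 times, in the untreated channel of array 2. Both were red values, and neither was flagged. The other 6 values lay between 1.03 and 1.20 times the median.

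HCRTR2, which binds both orexins, had a probe 1 at 67, 195.5, 88 and 235.5 in the orexin B channel and at 175.5, 92.5, 208 and 93 in the untreated channel, or 0.96 to 1.38 times the negative-control median. Its probe 2 was at 0.78 to 1.14 times. Neither probe was flagged on any array. Both channels of array 3 for HCRTR1, and both of array 4 for HCRTR2 probe 1, lay above the 95th percentile of the negative-control spots. By the scanner's flag, transcript of either orexin receptor was not detectable at this sensitivity, which does not show that it is absent.

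ADIPOR1, an adiponectin receptor tied to the kinase AMPK, stood well clear of the negative controls. Its probe 1 read 361, 484.5, 685 and 598 in the orexin B channel over local backgrounds of 40, 29, 44 and 23, and 394, 947.5, 461 and 436 in the untreated channel over 58, 41, 34 and 34. The untreated value of array 2, in red, was 14.1 times the negative-control median, against 6.12 to 10.2 times for the other red values. Green values were 2.15 to 3.02 times that median, and every value of this probe was flagged. Probe 2 read 213, 399, 375 and 339.5 in the orexin B channel and 298, 621, 340 and 174.5 in the untreated channel, and was flagged on 4 and on 3 arrays. It was 1.63 to 2.22 times the negative-control median in green and 2.53 to 9.27 times in red.

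ADIPOR2, the receptor tied mainly to PPAR-alpha signalling in mouse liver, was flagged on 4 of 4 arrays in both channels with both probes. Probe 1 read 300, 452, 430 and 387 with orexin B, against 335.5, 486, 336 and 243 without. Probe 2 read 264, 353, 389 and 364 with orexin B, against 336, 381, 291 and 194 without. Probe 1 was 1.83 to 2.51 times the negative-control median in green and 3.52 to 7.25 times in red. Probe 2 was 1.59 to 1.96 times that median in green and 2.81 to 5.81 times in red. All 16 values lay above the 95th percentile of the negative-control spots.

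ADIPOQ, the hormone that these receptors bind, was flagged on no array. Probe 1 read 94.5, 197, 93 and 226 with orexin B, and its values in both channels were 1.09 to 1.60 times the negative-control median. Probe 2 lay at 1.01 to 1.87 times. It lay above the 95th percentile of the negative-control spots in 6 of 16 values. Of 11 adipocyte markers with a probe, PLIN1 and CIDEC, which coat fat droplets, were flagged on 0 of 8 values, as were ADRB3 and AQP7, while CIDEA, FABP4, LIPE, PCK1 and PNPLA2 were bright enough to test.

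LEP gave a different reading with each probe. Probe 1 read 205.5, 325, 306 and 378 with orexin B over local backgrounds of 26, 29, 33 and 21, and 236, 175, 301 and 257 without orexin B over 46.5, 30.5, 21 and 28. It was flagged on 4 arrays in the orexin B channel and on 3 in the untreated channel, array 1 again missing. Against the negative controls it was 1.29 to 1.91 times their median in green and 2.61 to 4.57 times in red. Probe 2 read 69, 225.5, 146 and 257.5 with orexin B, against 179, 133.5, 217 and 114 without, and was flagged only in the untreated channel of array 4. It was 0.98 to 1.30 times the negative-control median in green and 1.17 to 2.18 times in red. Yet it lay above the 95th percentile of the negative-control spots on 3 arrays in each channel. Probe 1 did so on 4 arrays with orexin B and on 3 without. The accession given for both probes is the same, and no probe sequence was used, so what sets the probes apart was not tested.

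LEPR, the leptin receptor, was read by a single probe at 60.5, 168, 61 and 157 with orexin B, against 158.5, 61, 183 and 56 without. These values were 0.79 to 1.03 times the negative-control median, and none was flagged. RETN had values of 0.94 to 1.45 times that median with probe 1 and 0.96 to 1.31 times with probe 2. GHRL, with 1 probe, read 106, 257, 204 and 312 with orexin B, against 213, 155, 281.5 and 176 without, and was flagged on 4 arrays in the orexin B channel and on 2, arrays 3 and 4, in the untreated channel. It was dim, at 1.16 to 1.58 times the negative-control median in green and 1.80 to 3.04 times in red. Its untreated value on array 1 lay below the 95th percentile of the negative-control spots, and that on array 2 lay above it.

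A ratio was computed for the 7 probes that were well above background on all 4 arrays in at least 1 channel: HCRT, both of ADIPOR1, both of ADIPOR2, probe 1 of LEP and GHRL. HCRT, ADIPOR1 probe 2, LEP probe 1 and GHRL reached 4 arrays in the orexin B channel only, and no listed probe did so in the untreated channel only. Of all non-control probes 45.6% met this rule, and of those with a gene symbol 66.8%. Ratios are orexin B over untreated, after normexp background correction and loess normalization within each array, on a log2 scale. The offset of 50 added to each signal pulls the ratios of spots as dim as these towards 0, and their spread and intervals shrink with them. None of the 7 probes differed from 0 in limma's moderated test after Benjamini-Hochberg adjustment over 19879 probes (percent called over all probes 0), nor at an unadjusted p under 0.05, which 7.72% of all tested probes reached (4.31% higher and 3.41% lower). Their means ran from -0.07 to 0.17, with 4 above and 3 below 0 and a median of 0.03, beside 0.02 for all tested probes. No listed probe had the same sign on all 4 arrays, against 16.1% of all tested probes (9% higher and 7.14% lower). On the slide shared by arrays 2, 3 and 4 alone, the means were -0.014 for HCRT, -0.14 and -0.12 for ADIPOR1, 0.05 and 0.11 for ADIPOR2, 0.11 for LEP and -0.05 for GHRL.

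**Figure D2:**
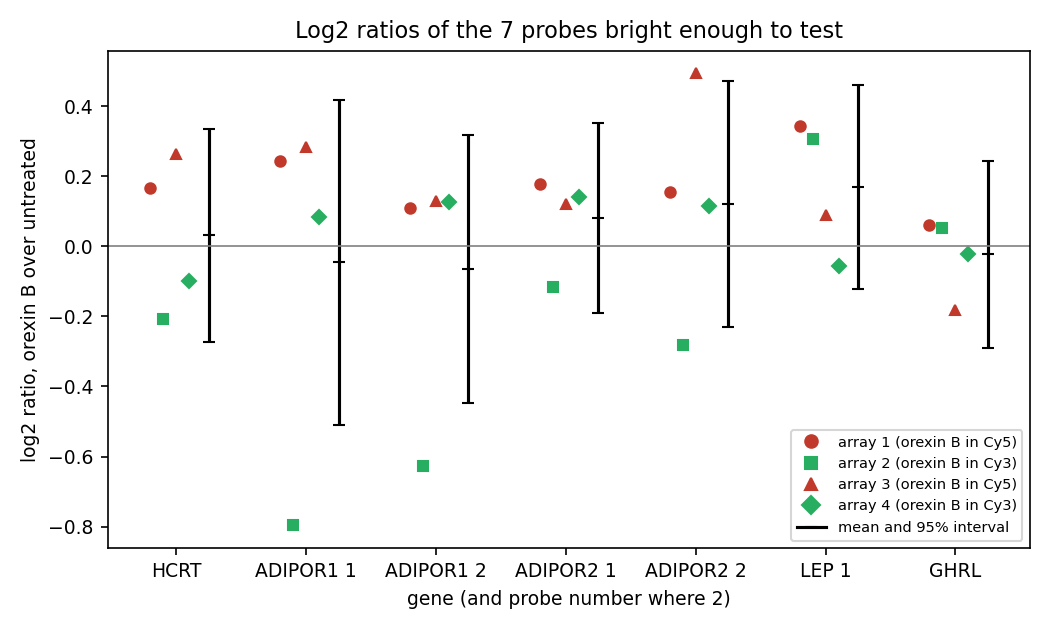
Log2 ratio of orexin B over untreated for each of the 7 tested probes: symbols are single arrays, coloured by the dye of the orexin B RNA, and the black bar is the mean with its 95% interval from limma. Every interval crosses 0, and array 2 lies lowest for both ADIPOR1 probes at -0.80 and -0.63.

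For HCRT the log2 ratios were 0.17, -0.21, 0.26 and -0.10 on arrays 1 to 4. It was higher on both arrays with orexin B RNA in red and lower on both with it in green, with means of 0.21 and -0.15, so its sign followed the dye. Its mean was 0.03 ± 0.13 (standard error, n = 4 arrays, adjusted p = 0.966 in limma), and the 95% interval of the ratio ran from 0.83-fold to 1.26-fold. With Agilent's own processed signals, which add no offset, the mean was -0.026 ± 0.21 (standard error, adjusted p = 0.977 in limma), a wider spread. Normalized to log2 intensity, HCRT averaged 8.25 ± 0.09 in the orexin B channel and 8.22 ± 0.22 in the untreated channel (SD, n = 4 each). The difference was smaller than the spread in either channel.

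The ADIPOR1 probes had log2 ratios of 0.24, -0.80, 0.28 and 0.08 (probe 1) and 0.11, -0.63, 0.13 and 0.13 (probe 2) on arrays 1 to 4. Both probes were lower with orexin B on array 2 and slightly higher on the other 3 arrays. Their means were -0.05 ± 0.20 and -0.07 ± 0.16 (standard error, n = 4 arrays, adjusted p = 0.968 and 0.943 in limma), with 95% intervals of 0.70-fold to 1.34-fold and 0.73-fold to 1.25-fold. Without array 2 the means were 0.20 and 0.12, with adjusted p = 0.723 and 0.805 in limma. Normalized to log2 intensity, probe 1 had an SD of 0.08 in the orexin B channel (mean 9.12) and 0.47 in the untreated channel (mean 9.16).

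ADIPOR2 log2 ratios were 0.18, -0.12, 0.12 and 0.14 with probe 1 and 0.15, -0.28, 0.49 and 0.12 with probe 2, again lower on array 2 and higher on the other 3. The means were 0.08 ± 0.12 and 0.12 ± 0.15 (standard error, n = 4 arrays, adjusted p = 0.887 and 0.867 in limma), and the 95% intervals ran from 0.88-fold to 1.28-fold and from 0.85-fold to 1.39-fold. The probes of each receptor had the same sign on all 4 arrays, with a root mean square difference of 0.13 between the ADIPOR1 probes and 0.20 between the ADIPOR2 probes. Smooth muscle markers had medians of -0.01, -1.13, 0.31 and -1.24 on arrays 1 to 4, so they were low on array 4 as well as on array 2, while both receptors were above 0 on array 4. Their part in the receptor values was not tested.

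The log2 ratios of LEP probe 1 were 0.34, 0.31, 0.09 and -0.06 on arrays 1 to 4, higher with orexin B on 3 of 4 arrays and not split by dye, with means of 0.22 with orexin B in red and 0.12 with it in green. The mean was 0.17 ± 0.12 (standard error, n = 4 arrays, adjusted p = 0.764 in limma), and the interval ran from 0.92-fold to 1.38-fold. In normalized log2 intensity it averaged 8.42 ± 0.08 in the orexin B channel and 8.25 ± 0.23 in the untreated channel (SD, n = 4 each). With Agilent's own processed signals, which add no offset, the mean was 0.41 ± 0.24 (standard error, adjusted p = 0.676 in limma).

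The adipocyte markers, given beside LEP because fat cells are its main known source, had 5 of 11 genes with a probe bright enough to test, all 5 with a mean below 0 and none past the test, with medians of 0.09, -0.42, -0.03 and -0.11 on arrays 1 to 4. Their summed level ran from 2869 to 3217 in the orexin B channel and from 2795 to 3745 in the untreated channel. In bulk tissue, fewer cells of a type and less RNA per cell cannot be told apart.

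GHRL had log2 ratios of 0.06, 0.05, -0.18 and -0.02, as many above as below 0. Its mean was -0.02 ± 0.11 (standard error, n = 4 arrays, adjusted p = 0.973 in limma), with an interval from 0.82-fold to 1.18-fold. The SD of its 4 ratios was 0.11, at the 8.56th percentile of the SDs of all tested probes. The offset shrinks the spread of a probe this dim, so the low rank does not show a steady level. With Agilent's own processed signals the mean was 0.14 ± 0.22 (standard error, adjusted p = 0.872 in limma).

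Of the genes with a symbol and a tested probe, the closest to each listed gene over the 4 log2 ratios was PDIA4 for HCRT (root mean square difference 0.02), LMCD1 for ADIPOR1 (0.08), GAS2L1 for ADIPOR2 (0.03), ABO for LEP (0.06) and PBX2 for GHRL (0.06). The second closest were ITGB2, KLHDC3, PPT2, KDM5C and WDR62, in the same order. PDIA4, an endoplasmic reticulum chaperone, had ratios of 0.16, -0.17, 0.26 and -0.12, the same alternation with dye as HCRT. With 4 arrays and 1958 genes to choose from, such likeness is a description only.

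The signalling partners and other hormones of the field were taken as 5 lists holding 141 genes. Of these, 77 had a probe and 47 were bright enough to test. None passed limma's adjusted threshold (0 of 47), and 2 of 47 (4.26%) had an unadjusted p under 0.05. Over all tested probes, counted by probe and not by gene, the share was 7.72%. A count of 2 is too small to set these shares apart. Among the 46 measured on every array, 7 (15.2%) had the same sign on all 4 arrays, near the 16.1% of all tested probes, 4 higher and 3 lower. The median of the 47 genes was 0.05. No cell type marker passed limma's adjusted threshold. Of 7 tested macrophage markers all 7 had a mean above 0 and 6 an unadjusted p under 0.05, with a median of 0.61, and their summed level ran from 7479 to 17662 in the orexin B channel and from 4473 to 10225 in the untreated channel. PPBP, the only 1 of 5 blood markers with a probe, had a mean of 1.14. Of 4 trophoblast markers 1 was bright enough to test, IL1B2 with 0.49, while CDX2 and IFNG were flagged on 0 of 8 values. The 3 endothelial markers CDH5, PECAM1 and VWF had 0.31, 0.32 and -0.08. Only PPBP, IL1B2 and CDH5 among these had an unadjusted p under 0.05 in limma. All 7 smooth muscle markers had a mean below 0, with a median of -0.49 and none at an unadjusted p under 0.05. The 2 tested epithelial markers had a median of -0.33, with medians of 0.33, -0.46, -2.09 and 0.89 on arrays 1 to 4. The neuron marker UCHL1 had a mean of -0.14. The part of these cells in the values below was not tested.

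**Figure D3:**
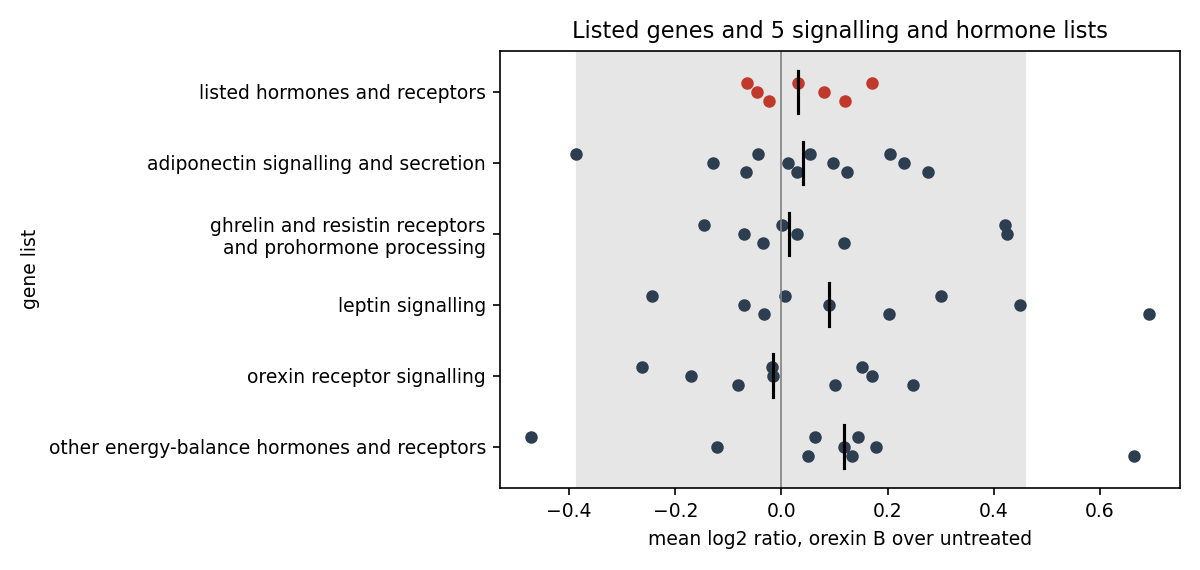
Mean log2 ratio of orexin B over untreated for the tested probes of the listed genes (red) and for the brightest tested probe of each gene of the 5 other lists (dark), with black bars at the medians. The grey area runs from the 5th to the 95th percentile of all genes with a symbol, -0.38 to 0.46; all 7 listed probes fall inside it.

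Orexin receptors signal through Gq and other G proteins to phospholipase C, protein kinase C and stored calcium. Of 30 genes of that list, 11 had a probe and 9 were tested, 4 above and 5 below 0, with a median of -0.02. GNAS, the stimulatory G protein subunit, had log2 ratios of -0.18, -0.18, -0.12 and -0.57, below 0 on every array (mean -0.26 ± 0.13, standard error, adjusted p = 0.671 in limma), as read by its brightest probe, while its other 13 tested probes had means of -0.17 to 0.02. GNAQ, the Gq subunit, had 0.24, -0.10, 0.34 and 0.51 (mean 0.25). Its relative GNA11 had a mean of 0.17, and the hypoxia factor HIF1A had 0.15.

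In the adiponectin list 12 of 22 genes were tested, 8 above and 4 below 0, with a median of 0.04. Of 4 tested AMPK subunit genes, 1 had a mean above 0 and 3 below, none with an unadjusted p under 0.05. PRKAB2 had 0.24, 0.04, 0.48 and 0.35 (mean 0.28 ± 0.12), while the catalytic PRKAA2 had -0.40, -0.23, 0.12 and -1.04 (mean -0.39 ± 0.19), and PRKAB1 and PRKAG1 had means of -0.04 and -0.07. ERO1A, an oxidase that helps adiponectin leave the cell, had 0.32, 0.21, 0.19 and 0.11 (mean 0.21, adjusted p = 0.708 in limma), above 0 on every array, as was its second probe, at 0.26 to 0.44 (mean 0.35). That dimmer probe had an unadjusted p of 0.0153 in limma and is not in the count of 2 of 47, which takes the brightest probe of each gene. CDH13 (T-cadherin), which binds adiponectin oligomers at the cell surface, had 0.72, 0.26, -0.01 and -0.05 (mean 0.23). APPL1, the adaptor of both receptors, had -0.13 ± 0.11. PPARA was flagged on 0 of 8 values.

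The leptin list had 9 of 19 genes tested, 6 above and 3 below 0, with a median of 0.09. STAT3, the transcription factor that LEPR activates through JAK2, had a mean of 0.69 ± 0.39 (standard error, adjusted p = 0.726 in limma), from ratios of 0.03, 2.41, 0.41 and -0.07. The value of 2.41 came from 1 probe, and the other 3 tested STAT3 probes had 0.43, 0.19 and -0.30 on that array. JAK2 had -0.05, 0.54, 1.39 and -0.08, with 0.0024 in place of 1.39 on array 3 for its other probe. The phosphatase PTPN1, which dampens leptin signalling, had a mean of 0.30, and LEPROT, whose product affects receptor traffic, had -0.24.

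Of 21 receptors of ghrelin and resistin and prohormone processing genes, 14 had a probe and 8 were tested, 5 above and 3 below 0, with a median of 0.02. The peptidase gene ACE had 0.76, 0.15, 0.43 and 0.34, above 0 on every array (mean 0.42 ± 0.14, unadjusted p = 0.0171 and adjusted p = 0.596 in limma). Another peptidase, DPP4, had -0.02, 0.57, -0.28 and 1.42 (mean 0.42), CHGB had 0.12 and CPE, which trims prohormones, had -0.15. The ghrelin receptor GHSR, the ghrelin acylating enzyme MBOAT4, and the prohormone processing and granule genes PCSK1, PCSK2, CHGA and SCG2 were flagged on 0 of 8 values.

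Among 49 other energy-balance hormones and receptors, 27 had a probe and 9 were tested, 7 above and 2 below 0, with a median of 0.12. RARRES2, the precursor of the adipokine chemerin, had -0.10, -0.55, -0.16 and -1.07, below 0 on every array (mean -0.47 ± 0.18, unadjusted p = 0.0343 and adjusted p = 0.621 in limma), while its receptor CMKLR1 was flagged on 0 of 8 values. GDF15, a stress hormone that lowers appetite, had 0.34, 0.13, 0.01 and 2.17 (mean 0.66). CCK had a mean of 0.18 and POMC of 0.14. Of the hypothalamic and gut peptide genes and their receptors, AGRP, CARTPT, CRH, CRHR2, GAL, GCG, GHRH, INS, KISS1 and MC4R were flagged on 0 of 8 values.

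**Figure D4:**
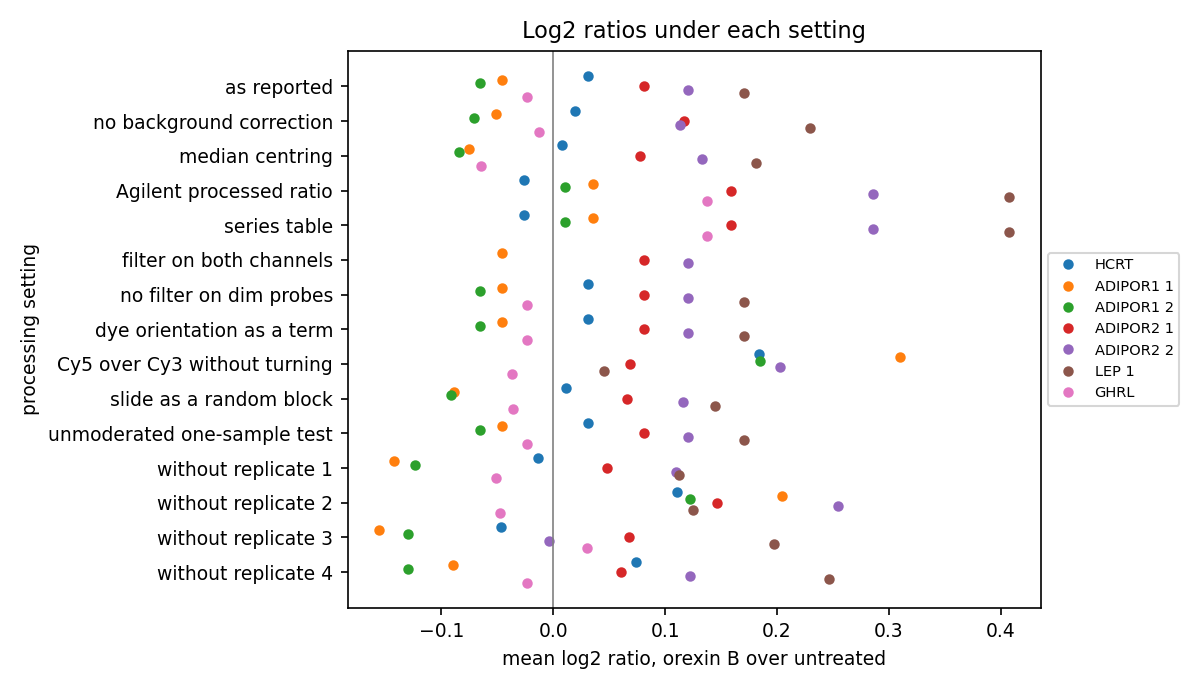
Mean log2 ratio of the 7 tested probes under each processing setting, from the values as reported at the top to the fits without 1 array at the bottom. LEP, which has no value under the filter on both channels, lies between 0.05 and 0.41 and probe 1 of ADIPOR2 between 0.05 and 0.16, while the others fall on both sides of 0.

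ADIPOR2 probe 1 was above 0 in all 14 alternatives (0.05 to 0.16). The alternatives reuse the same arrays, so a constant sign among them is not independent support. LEP probe 1 was above 0 in the 13 that gave it a value (0.05 to 0.41). The filter on both channels left out this probe, which had passed through the orexin B channel only. Its lowest value came from Cy5 over Cy3 without turning, which is not orexin B over untreated by the dye fields, and the next was 0.11. Read that way, ADIPOR2 probe 1 had 0.07. Not every alternative could move a mean. Dropping the filter, dye as a term and the unmoderated test left ADIPOR2 probe 1 at 0.08 and LEP probe 1 at 0.17, as reported. The filter on both channels also left ADIPOR2 probe 1 at 0.08. The series table repeated the values of Agilent's processed ratio, 0.16 and 0.41. HCRT, both ADIPOR1 probes, ADIPOR2 probe 2 and GHRL took values on both sides of 0. The lowest adjusted p of any listed probe in any of these limma fits was 0.375, for LEP with the slide as a random block.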

How the data were processed

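The authors deposited scanner files with spot intensity values, the median signal of spot and local background per colour, their flags and processed intensity values; per the file headers the software was Agilent Feature Extraction, version 10.7.3.1. The deposited log10 ratio in those files divides red by green, and the deposited series table holds log2 ratios: 100% of its values matched the processed signals within 0.01 once turned to orexin B over untreated, with column medians of -0.27, -0.08, -0.20 and -0.09. No genome build is named, so no coordinates are given.

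Background was corrected with normexp (offset 50) on the median signals followed by loess within each array, where control spots had weight 0 (limma 3.58.1 under R 4.3.3). Ratios of arrays 2 and 4 were turned by the dye fields. Outlier spots (31 to 138 per array) were left out and spots of a probe averaged. A probe was tested if well above background on all 4 arrays in a channel and unmarked on at least 3. An intercept was fitted with lmFit and eBayes, with Benjamini-Hochberg adjustment of its two-sided p over 19879 probes and a threshold of 0.05. An exact sign permutation of 4 arrays cannot go below p = 0.125. Channel levels were scaled between arrays with Aquantile. Accessions matched Sscrofa11.1 RefSeq for 6700 probes, 6599 with a symbol. Genes of lists are given by their brightest tested probe. The fit was tested on simulated data. Every listed gene is named, with the 4 smallest p of each list and the 2 closest genes to each listed gene. Members and lists were chosen with earlier results of these data known. Python 3.11.15 and matplotlib 3.10.9 drew the figures.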

Additional observations from a re-analysis of the deposited data

Results flagged for a closer look

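In 3 of 40 probes or genes looked at, a single array stood far from the other 3, where chance gives about 2. For ADIPOR1 probe 2 array 2 gave -0.63 in log2 and the other arrays 0.11 to 0.13, and probe 1 of the same gene was also lowest on that array, at -0.80. The brightest GNAS probe had -0.57 on array 4 and -0.18 to -0.12 on the others. The next brightest GNAS probe had -0.29, 0.01, -0.01 and -0.37 on arrays 1 to 4, so array 4 was not set apart there. GDF15 had 2.17 on array 4 and 0.01 to 0.34 on the others.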

How the results depend on the processing

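No listed probe passed limma's adjusted threshold under any setting. With Agilent's processed ratio, and equally with the series table, HCRT was -0.026, ADIPOR1 0.035 and 0.010 (probes 1 and 2) and GHRL 0.14. Read as Cy5 over Cy3 without turning, ADIPOR1 was 0.31 and 0.18. Leaving out 1 replicate gave -0.047 to 0.11 for HCRT, -0.16 to 0.20 and -0.13 to 0.12 for ADIPOR1, -0.0036 to 0.25 for ADIPOR2 probe 2 and -0.052 to 0.030 for GHRL. The cause of these turns was not tested. The filter on both channels left both ADIPOR2 probes and ADIPOR1 probe 1. The 1534 of 19879 probes at an unadjusted p under 0.05 became 177 with median centring (172 higher, 5 lower). Without the filter they became 2302 of 43601, a smaller share. They became 2382 with dye as a term and 4280 with the slide as a random block (estimated correlation -0.26). Without 1 replicate they were 726 to 1922, the lowest without replicate 4. The adiponectin list's median was 0.067 without background correction, -0.0025 with median centring, 0.093 with the processed ratio, 0.14 with the series table, 0.021 with dye as a term and -0.0049 to 0.077 without 1 replicate. In that list CPT1A had no value on array 1, where its spot was left out as an outlier. Dye as a term moves a mean only where an array is missing, and the series table was used with outlier spots kept. Without 1 replicate the other energy-balance list ran from 0.023 to 0.14, and the orexin list, at -0.02 over all 4 arrays, from 0.018 to 0.071. Of 128 signals, 52 were flagged, 128 passed 1.5 times local background and 71 lay above the 95th percentile of negative controls, a rule chosen after seeing the data. Each ratio already pairs treated with untreated RNA on its array, so the test is paired by array. Whether it is also paired by gilt is not known, since the labels do not tie an array to a gilt. With 1 group of arrays no replicate block could be added to the test. Of the 9 listed probes without a ratio, 8 were not well above background in any value.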
